A study of Homo sapiens with 6 samples.

Results

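In native ChIP-Seq (nChIP-Seq) of HA-tagged MMP-2 in U2OS, a cell line from a human osteosarcoma, 586 of the 7216 regions of the merged HA list had H3K4me3 in both cell lines but lay off the starts (TSSs) of protein coding transcripts. Native ChIP recovers nucleosomes cut with micrococcal nuclease, without crosslinking. These 586 regions are described here. They were chosen by the HA and H3K4me3 calls themselves together with gene annotation: a merged HA region 2000 bp wide or less, an H3K4me3 region of the ProMMP2-3xHA cells and one of the WT cells within 1 kb, and no TSS of any transcript of a protein coding gene within 1 kb. Of the 6685 HA regions of this width on chromosomes 1 to 22, X and Y, 5614 were near both H3K4me3 lists, and 5028 of those also had a protein coding TSS within 1 kb. The latter served for comparison and are called TSS regions below. A further 826 regions were off TSSs and near neither H3K4me3 list.

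The ProMMP2-3xHA line makes MMP-2 at all times from an added full-length copy whose C-terminal end carries 3 HA tags, while WT cells carry no tag. Both lines also express their endogenous MMP-2 and were harvested when over-confluent, 2 days past confluence. HA was immunoprecipitated in ProMMP2-3xHA cells with 3 replicates, and H3K4me3 with 1 library in each line. HA in WT cells was not analysed here, so an antibody background at single regions is known only through the control that the peak caller used. The study describes its HA experiments as independent biological replicates.

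MMP-2 is a matrix metalloprotease, best known outside the cell, that can also cut the N-terminal tail of histone H3 in the nucleus. H3K4me3, trimethylation of lysine 4 on that tail, marks nucleosomes at active promoters. Promoters of this kind are not confined to protein coding genes: long noncoding RNAs (lncRNAs), primary transcripts of microRNAs, host genes of small nucleolar RNAs and some pseudogenes start from RNA polymerase II promoters with the same mark, and many of them lie in CpG islands, stretches rich in G, C and the dinucleotide CpG. Small RNAs such as U6 are transcribed by RNA polymerase III, whose active genes often sit beside H3K4me3 as well.

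The sequence at the HA summits is shown first, since base composition is where these regions stood apart from the other HA regions outside TSSs. Each line gives 120 bp of GRCh37, plus strand, around the mean summit of the replicates, with CpG dinucleotides in capitals. The first region is at SNHG8 (chr4:119199960-119200079, host of a small nucleolar RNA), where the window lies downstream of the annotated gene start. The others are the intergenic region with the highest fold enrichment (chr17:41393108-41393227), the transcribed pseudogene AFG3L1P (chr16:90039061-90039180) and the region beside RNU6ATAC, a spliceosomal RNA gene (chr9:137029934-137030053). This last window holds none of the gene itself. RNU6ATAC is annotated on the minus strand at chr9:137029561-137029686, so the window lies upstream of its start.
SNHG8: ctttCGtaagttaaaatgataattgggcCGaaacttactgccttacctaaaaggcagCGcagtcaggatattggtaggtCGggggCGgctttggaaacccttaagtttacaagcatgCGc
Intergenic, chromosome 17: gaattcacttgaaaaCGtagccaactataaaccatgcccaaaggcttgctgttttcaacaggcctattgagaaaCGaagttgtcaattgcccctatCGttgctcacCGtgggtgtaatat
AFG3L1P: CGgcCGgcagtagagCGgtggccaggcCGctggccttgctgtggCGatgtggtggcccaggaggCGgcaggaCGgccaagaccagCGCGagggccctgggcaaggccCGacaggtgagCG
RNU6ATAC: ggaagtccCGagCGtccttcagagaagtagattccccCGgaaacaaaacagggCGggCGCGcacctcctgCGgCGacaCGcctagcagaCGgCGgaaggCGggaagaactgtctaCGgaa
The windows held 6, 4, 11 and 13 CpG in this order. GC content was 46.7% in the SNHG8 window and 43.3% in the intergenic window of chromosome 17, against 74.2% at AFG3L1P.

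By place, the largest class lay at lncRNA TSSs. A lncRNA TSS was within 1 kb of 282 regions (48.1%, exact binomial 95% interval 44.01 to 52.3%), while 26% of all merged HA regions of this width had one. The share was 27.4% at TSS regions and 5.33% at HA regions off TSSs without H3K4me3. The selection itself set these groups apart, by a protein coding TSS or by H3K4me3, so the contrast cannot be credited to HA. A closer comparison is with ProMMP2-3xHA H3K4me3 regions off protein coding TSSs that had a WT counterpart. Of 2497 such regions, 945 were near a lncRNA TSS, as were 319 of the 648 with an HA region of any width. Those near a lncRNA TSS were also wider, with a median of 809 against 493 bp without one. Intergenic sequence held 159 of the HA regions described here (27.1%) and introns of protein coding genes 71 (12.1%). Bodies of lncRNA genes away from their TSSs held 31 (5.29%), pseudogenes 21 (3.58%), exons of protein coding genes 16 (2.73%) and TSSs of small RNAs 6 (1.02%). These intervals cover counting error only, since the regions come from 1 pooled list. Each region was counted in 1 class, with lncRNA TSSs first. Of the lncRNA class, 34 regions also had a pseudogene and 30 lay inside a protein coding gene. The median distance to the nearest protein coding TSS was 19792 bp, with 38 regions between 1 and 2 kb away, 64 between 2 and 5 kb, 79 between 5 and 10 kb, 246 between 10 and 50 kb and 159 farther.

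Median HA fold enrichment at these regions lay slightly below that at TSS regions in each replicate. HA calls chose both groups, and the medians are over regions with a peak of that replicate, so the values are a description without a test. Fold enrichment is the number of HA fragments at the peak summit over the control background used by the peak caller. Each has 1 added, after scaling to the depth of the control. Its median was 4.91 in replicate 1, 5.85 in replicate 2 and 4.87 in replicate 3, compared with 5.00, 5.94 and 5.19 at TSS regions and 5.36, 6.41 and 4.43 at HA regions off TSSs without H3K4me3. The ratio of the medians to those at TSS regions was 0.983, 0.985 and 0.938, a mean of 0.968 ± 0.0266 (SD, n = 3). All 3 replicates were below 1. Among regions with a peak of every replicate the mean ratio was 0.973, and not every replicate was below 1. By class, the mean ratio was 0.966 at lncRNA TSSs, 0.957 in intergenic sequence, 1.00 in protein coding introns, 0.995 in lncRNA gene bodies, 0.957 at pseudogenes, 1.08 in protein coding exons and 0.772 at the 6 small RNA TSSs. Only the lncRNA, intergenic and small RNA classes were below 1 in all 3 replicates.

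**Figure D1:**
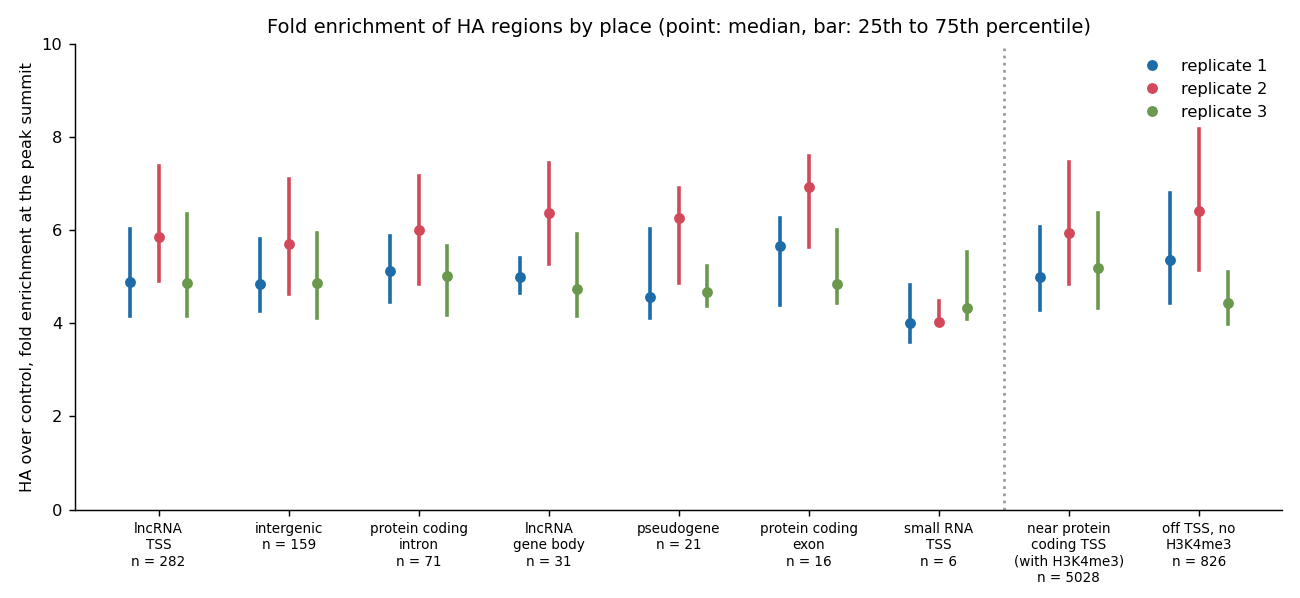
Median fold enrichment of HA over control (y axis, ratio) in each replicate for the 7 classes and, right of the dotted line, for the TSS regions and the HA regions off TSSs without H3K4me3. Points are medians and bars run from the 25th to the 75th percentile over regions with a peak of that replicate. The lncRNA TSS class sits at 4.88, 5.85 and 4.86, next to 5.00, 5.94 and 5.19 at TSS regions.

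The depth behind these values was recovered from the fold enrichment and p-value of each peak. The median summit held 49, 53 and 43 HA fragments in replicates 1, 2 and 3 over a control background of about 2 control fragments, and TSS regions held 51, 54 and 47. In the protein coding exon class, with the mean ratio of 1.08, the median background was lower, at 1.33, 1.55 and 1.41. These are the commonest background values of the replicates. The summits of this class held 49, 60 and 41 HA fragments, fewer than TSS regions in replicates 1 and 3. Genome-wide mean HA coverage was 4.74, 4.34 and 4.23 fragments, 3.57, 2.81 and 3.00 times that of the control. With about 50 fragments at a summit, small differences between single regions were not detectable at this depth.

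A peak of every replicate was present at 286 of the 586 regions (48.8%, 95% interval 44.7 to 52.9%), against 50.1% of all merged HA regions of this width, 56.4% of TSS regions and 17.6% of regions off TSSs without H3K4me3. Another 187 regions had a peak in 2 replicates, 97 in 1 and 16 in none, the last being visible only after pooling. The merged list was made from the same reads, so these counts describe the list and are no independent support for it. Replicate 1 found 69.1% of the regions and 69.9% of TSS regions, replicate 2 found 81.1% and 84.2%, and replicate 3 found 76.6% and 87.0%. The difference was -0.736, -3.15 and -10.4 percentage points (mean -4.75 ± 5.01, SD, n = 3). Replicate 3 also found only 32.6% of the regions off TSSs without H3K4me3, where replicates 1 and 2 found 74.9% and 75.3%.

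Regions seen in more replicates were wider and richer in GC. The median width fell from 567 bp with a peak in 3 replicates to 283 bp with 2, 194 bp with 1 and 163 bp with none, and the median GC content of the central 500 bp from 66.0% to 63.2%, 60.8% and 59.2%. The share at lncRNA TSSs did not follow this order, at 49.3%, 46.0%, 49.5% and 43.8%. Where all 3 replicates had a peak, the median coefficient of variation of fold enrichment over the replicates was 19.8%, against 18.9% at TSS regions. Replicate 2 was highest at 213 of the 286. Across regions, Spearman's rho of fold enrichment was 0.681 between replicates 1 and 2 (343 regions), 0.546 between 1 and 3 (319 regions) and 0.535 between 2 and 3 (383 regions). These correlations are descriptive, and the points share libraries, controls and base composition.

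Unnamed transcripts were the largest group in the lncRNA class. Of its 282 regions, 135 (47.9%) lay at genes known only by an identifier, 58 at LINC genes, 27 at genes named as antisense, divergent or intronic, 12 at host genes of microRNAs and 10 at small nucleolar RNA host genes (SNHG). The TSS itself lay inside the HA region in 180 (63.8%), compared with 71.8% of TSS regions that contained a protein coding TSS.

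HA summits sat downstream of lncRNA TSSs as they did at protein coding TSSs, a position that the selection did not use. Among summits within 500 bp of the nearest lncRNA TSS, the transcribed side held 59.7% (of 226, replicate 1), 60.5% (of 286, replicate 2) and 61.6% (of 292, replicate 3). The excess over 50% was 10.6 ± 0.962 percentage points (SD, n = 3, exact sign permutation p = 0.25, the smallest possible). At protein coding TSSs of the TSS regions it was 10.4 ± 1.15, from 4400, 5521 and 5886 summits. The excess depended on the distance allowed: within 250 bp it was 17.1 ± 2.80 at lncRNA TSSs and 18.1 ± 1.29 at protein coding TSSs. The difference between both kinds of TSS within 500 bp was -0.175, 0.899 and -0.0789 points, with a mean of 0.215 ± 0.594 (exact sign permutation p = 1). Downstream summits had a median distance of 100, 107 and 118 bp from the lncRNA TSS in the 3 replicates and 94, 101 and 97 bp from the protein coding TSS. Upstream summits lay farther out, at 174, 224 and 199 bp and at 188, 200 and 205 bp. The summits of neighbouring replicates come from the same TSSs and are not independent of each other.

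**Figure D2:**
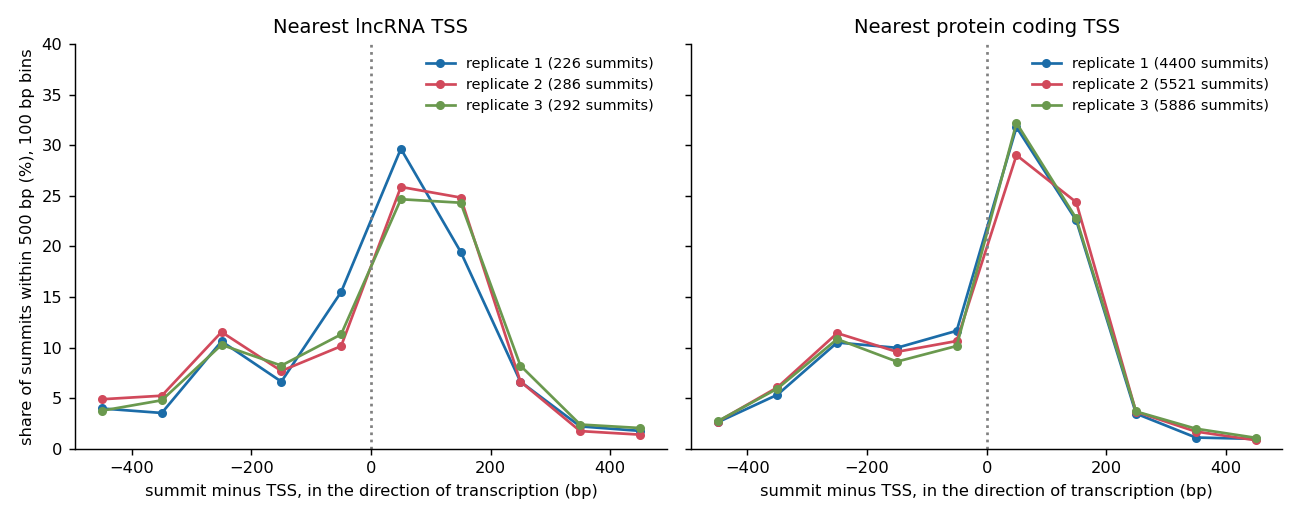
Position of HA summits relative to the nearest lncRNA TSS (left) and protein coding TSS (right), in bp along the direction of transcription, as the share of summits within 500 bp per 100 bp bin (y axis, %), 1 line per replicate. At lncRNA TSSs the bin just downstream held 29.6%, 25.9% and 24.7% of the summits in replicates 1, 2 and 3, with a smaller rise between 200 and 300 bp upstream (10.6%, 11.5% and 10.3%).

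The strongest lncRNA promoters reached fold enrichments above 10. At MALAT1, the gene of an abundant nuclear lncRNA (chr11:65264909-65266821, centre in the single exon of the gene), fold enrichment was 12.3, 16.7 and 11.5 in replicates 1, 2 and 3 (mean 13.5 ± 2.82, SD), from 175, 232 and 148 fragments. SNHG8 (chr4:119199530-119200278), whose first exon holds the centre of the region, had 9.01, 15.1 and 11.2 from 157, 209 and 165 fragments. LINC02846 (chr9:139001327-139002016) had 12.6, 16.3 and 4.84, so that replicate 3 lay far below the other 2. An unnamed lncRNA on chromosome 17 (ENSG00000285822, chr17:25416029-25416931) had 10.4, 13.8 and 9.09, and one on chromosome 16 (ENSG00000291228, chr16:2653424-2653849) had 11.9, 12 and 8.71. The latter overlaps a transcribed pseudogene and lies 3982 bp from a TSS of PDPK1. Its reads could be shared with a near-identical copy where the aligner could place them, which was not tested.

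Of the SNHG genes, which carry small nucleolar RNAs in their introns, 28 were annotated. 14 of them had H3K4me3 in both lines and no protein coding TSS within 1 kb, and 12 of those 14 had an HA region. Among all 1248 lncRNA genes with these properties 35.4% had one, and among all annotated lncRNA genes 11.1%. The HA regions of 10 fulfilled every criterion: SNHG6, SNHG7, SNHG8, SNHG11, SNHG15, SNHG16, SNHG26, SNHG29, SNHG30 and SNHG32. SNHG6, with 5.61, 9.20 and 11.1, and SNHG7, with 5.31, 8.13 and 7.17, came after SNHG8. At SNHG15 fold enrichment was 5.1, 7.32 and 6.90, at SNHG32 6.79, 8.33 and 3.53, and at SNHG29 no peak of replicate 1 was found, with 5.20 and 6.22 in the other 2. The HA regions of SNHG12 and SNHG25 had no protein coding TSS nearby either but were 4813 and 3184 bp wide, over the limit of 2000 bp.

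Among 20 other well-known lncRNAs of a list, 11 had H3K4me3 in both lines and no protein coding TSS within 1 kb, and 7 of these had an HA region. The share among all 1248 lncRNA genes with these properties was 35.4%. DANCR (chr4:53578205-53579076), a host of small nucleolar RNAs, had 7.65, 12.7 and 6.94 and MALAT1 the values above. MIR17HG, the transcript of the miR-17-92 cluster (chr13:91999955-92000132), reached 4.88 in replicate 1 and had no peak in the other 2. NORAD, a cytoplasmic lncRNA that binds Pumilio proteins, had a peak of replicate 2 alone at 5.04, and FTX had none in any single replicate although the pooled call placed a region of 164 bp there. NEAT1, the lncRNA of paraspeckles, was left out by its width of 11407 bp. CYTOR, KCNQ1OT1, MIR100HG and MIR210HG had H3K4me3 in both lines and no HA region, so H3K4me3 in the list did not go with an HA call at each of these promoters.

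Of the 8505 annotated small RNA genes, 2.32% had a merged HA region within 1 kb. The 6 regions of this class lay at RNU6ATAC, at the U6 genes RNU6-1 and RNU6-8, at a U1 variant gene (RNVU1-18), at a U3 gene and at MIR4710. The last is a microRNA gene, whose annotated start need not be the start of its primary transcript. RNU6ATAC (chr9:137029683-137030394) had 3.67, 4.47 and 3.87, and MIR4710 4.35, 4.03 and 4.33. Both stood below the median of the regions in all 3 replicates, and the other 4 lacked a peak in at least 1 replicate. U1, U3 and U6 genes have many near-identical copies, and the placement of their reads was not tested. Of 11 listed RNA polymerase III genes, 7 had H3K4me3 in both lines and no protein coding TSS nearby, and 2 of the 7 had an HA region: RNU6ATAC and RN7SL2, the latter counted with the lncRNA TSSs because a lncRNA starts beside it (3.17 and 5.44 in replicates 1 and 2, no peak in replicate 3). The vault RNA genes VTRNA1-1, VTRNA1-2 and VTRNA1-3 and the Y RNA genes RNY1 and RNY4 had H3K4me3 but no HA region. The 2.32% above covers small RNA genes with or without H3K4me3. The share among those with H3K4me3 and no protein coding TSS nearby was not computed, so 2 of 7 cannot be read as high or low.

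The intergenic class contained the strongest region of all 586. At chr17:41392480-41393350, 27417 bp from the nearest protein coding TSS (TMEM106A), fold enrichment was 35.5, 44.7 and 19.1 (mean 33.1 ± 13.0, SD), from 291, 317 and 135 fragments. Its control background of 1.33 to 1.55 control fragments was the commonest value of each replicate. Every replicate placed this region above any other of the 586, while its H3K4me3 regions were narrow, 475 bp in ProMMP2-3xHA and 649 bp in WT cells. Its summit sequence, shown above, held 4 CpG and none of the motifs searched lay in the 300 bp at its centre. Next came chr16:13700458-13701276, 312719 bp from the nearest protein coding TSS, with 10.5, 16.5 and 8.85, and chr7:2902786-2903837 with 11.5, 12 and 11.6, an SD of 0.287. A pair of further regions, chr2:43037036-43038804 (7.76, 11.5 and 8.20) and chr9:132222821-132223410 (6.45, 10.3 and 10.4), made up the top 5 of the class. Among the 286 regions with a peak of every replicate, 12 (4.20%) had a mean of at least 10, compared with 3.85% of TSS regions.

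The classes of protein coding introns and exons together held 87 regions. On canonical transcripts, 22 region centres fell in a first intron, 29 in an inner and 2 in a last intron, 9 in the 3′ UTR of a last exon, 4 in inner coding exons and 3 in a last coding exon, and 18 lay outside the canonical transcript. The TSS of the host gene had a merged HA region of its own in 22 of the 87 (25.3%, 95% interval 16.6 to 35.7%). The same share over all protein coding genes was not computed, so this count cannot be read as high or low. CBX8, a subunit of Polycomb repressive complex, had a region in its last exon, in the 3′ UTR (chr17:77766903-77767731), with 4.07, 6.62 and 4.50. In intron 1 of EPHB3, an ephrin receptor gene (chr3:184286908-184287237), the values were 6.21, 11.2 and 4.98, and in the only intron of the insulin signalling adaptor gene IRS1 (chr2:227655896-227656719) 5.85, 9.76 and 5.39. The IRS1 region lay within H3K4me3 regions of 10515 bp in ProMMP2-3xHA and 10402 bp in WT cells. These H3K4me3 regions also cover the canonical TSS of IRS1 itself, 8229 bp from the centre of the HA region. ZFPM1, a cofactor gene of GATA proteins, carried its region in the 3′ UTR of exon 10 of 10 (chr16:88600753-88602146), with 6.57, 10.3 and 6.09. Replicate 2 was the highest at all 4 of these genes, as it was over the regions in general.

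**Figure D3:**
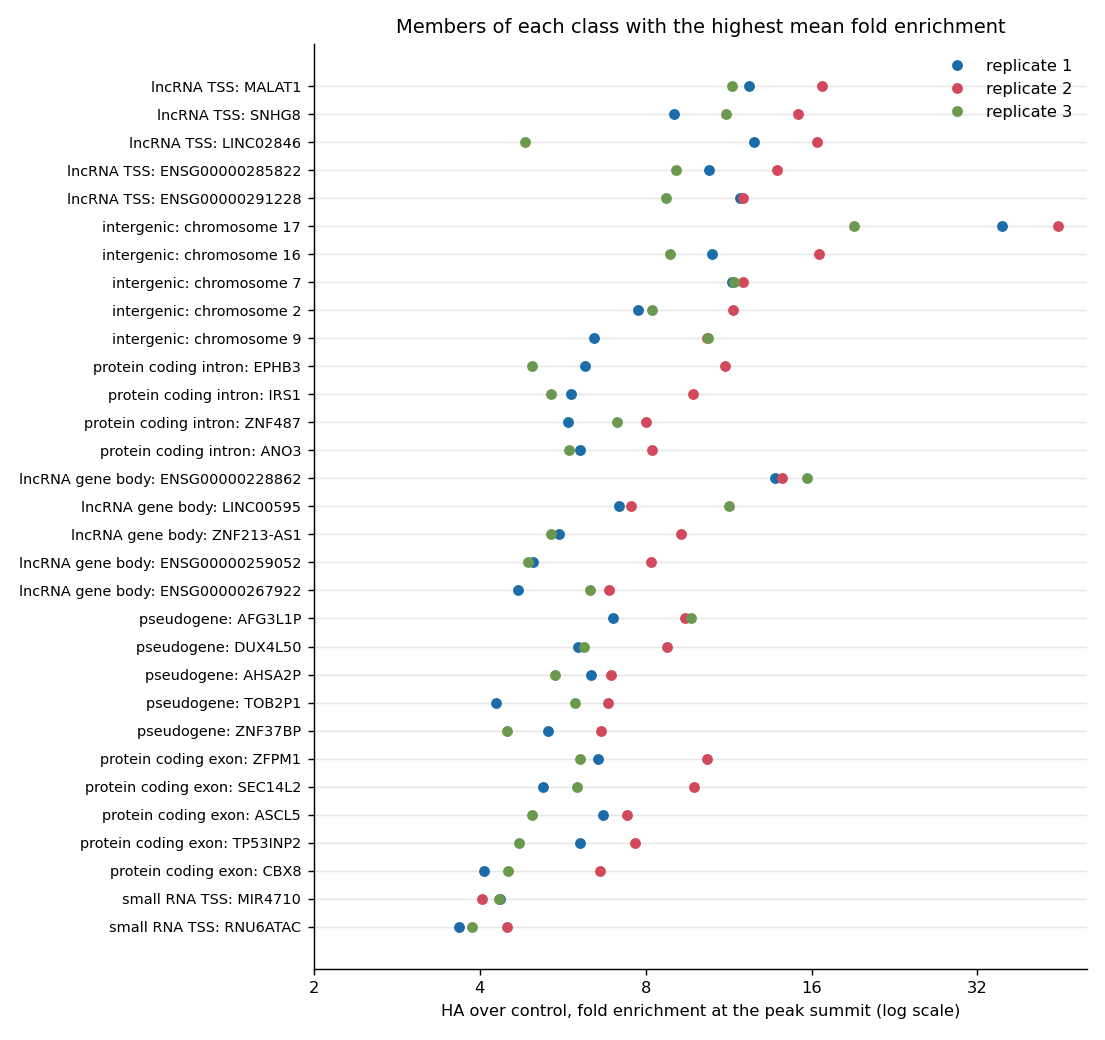
Fold enrichment of HA over control in each replicate (x axis, log scale, 1 point per replicate) at the reported regions with the highest mean in each class, up to 5 per class. The intergenic region of chromosome 17 lies at 19.1 to 44.7, and the strongest regions of the lncRNA class between 4.84 and 16.7.

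Pseudogene regions were at transcribed pseudogenes in part. AFG3L1P, a pseudogene of a mitochondrial protease gene (chr16:90038980-90039465, in its first intron), had 6.98, 9.43 and 9.66, and AHSA2P (chr2:61404034-61404976) 6.37, 6.91 and 5.47. DUX4L50, a copy of the DUX4 repeat family (chr9:68413198-68414286), had 6.03, 8.74 and 6.19, and reads from other copies of this repeat may be placed there, which was not tested.

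Bodies of lncRNA genes held 31 regions. The highest lay in an intron of an unnamed lncRNA on chromosome 8 (ENSG00000228862, chr8:61564292-61564930), 26369 bp from the nearest TSS of CHD7. Its centre was only 1506 bp from the canonical TSS of that lncRNA. It had 13.7, 14.1 and 15.7 and therefore the second highest mean of the 586 (14.5 ± 1.02, SD, n = 3). Unlike at most regions, replicate 3 was highest. Its H3K4me3 regions were 2705 bp wide in ProMMP2-3xHA and 3093 bp in WT cells, and its GC content was 76.2%. Next was a region in LINC00595 (chr10:80062648-80063239) with 7.17, 7.53 and 11.3.

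H3K4me3 was narrower at these regions than at TSS regions in both cell lines. The widest H3K4me3 region within 1 kb had a median width of 972 bp in ProMMP2-3xHA cells and 1318 bp in WT cells, against 1604 and 2012 bp at TSS regions. Among the classes, lncRNA TSSs had the widest, with 1203 and 1572 bp, and intergenic regions had 774 and 1097 bp. The WT region was the wider of the pair at 522 regions (89.1%) and at 92.4% of TSS regions, so the direction was general and not particular to these regions. With 1 H3K4me3 library per line, width cannot be told apart from the depth of the library, and no test was made.

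Base composition lay between that of TSS regions and that of the HA regions without H3K4me3. The median GC content of the whole region was 65.1%, against 68.2% at TSS regions and 53.8% at HA regions off TSSs without H3K4me3. In the central 500 bp the ratio of observed to expected CpG was 0.732, against 0.842 and 0.236. The classes were alike in GC content but not in CpG: the median GC content of the central 500 bp was 63.8% at lncRNA TSSs, 64.2% in intergenic sequence and 63.6% in protein coding introns, and only the 6 small RNA regions were lower at 55.3%, while the CpG ratio was 0.624 in protein coding introns, 0.672 in intergenic sequence, 0.761 at lncRNA TSSs and 0.820 at pseudogenes. Low GC content was more frequent than at TSS regions, with 9.56% of the regions and 1.09% of TSS regions under 50%. Of the 56 regions under 50% GC, replicates 1, 2 and 3 found 53.6%, 66.1% and 67.9%, and of the 149 regions at 70% or more 75.2%, 85.9% and 83.9%. Over the regions with a peak of the replicate, median fold enrichment was 4.99, 5.71 and 4.93 in the former and 4.93, 5.83 and 4.89 in the latter.

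**Figure D4:**
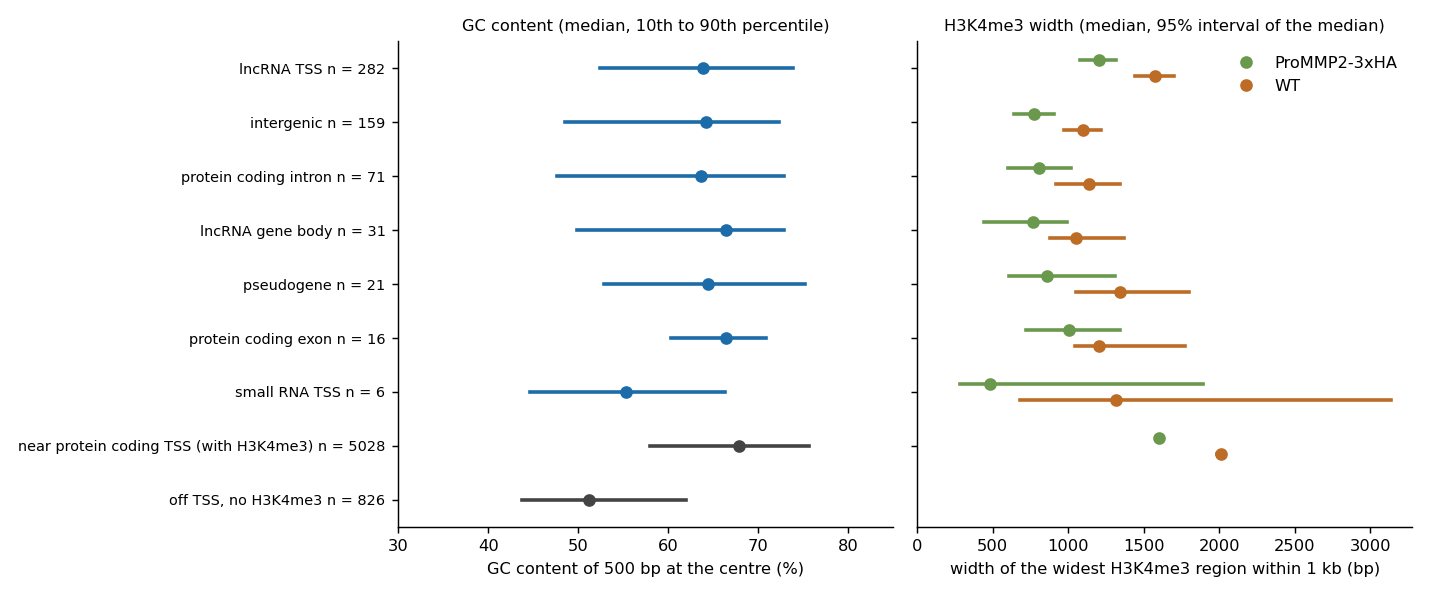
Left, GC content (%) of the 500 bp at the centre of HA regions, as the median and the 10th to 90th percentile of each class. Right, width (bp) of the widest H3K4me3 region within 1 kb in ProMMP2-3xHA and WT cells, as the median with its 95% interval. The classes off TSSs have medians of 55.3 to 66.4% GC, TSS regions 67.8% and HA regions without H3K4me3 51.2%.

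Motifs were searched for in the 300 bp at the centre, on either strand. The GC box GGGCGG occurred in 58.2% of the regions, 70.1% of TSS regions, 12.7% of the HA regions off TSSs without H3K4me3 and 60.8% of all merged HA regions of this width. The ETS core CGGAAG occurred in 24.2%, against 31.5%, 4.84% and 26.9%. An AP-1 site, TGACTCA or TGAGTCA, was present in 4.78% of the regions, in 2.11% of TSS regions, in 9.32% of those without H3K4me3 and in 3.53% of all. The TATA box TATAAA was present in 5.12%, against 2.41%, 9.93% and 3.68%. CCAAT occurred in 20.1%, CACGTG in 7.34%, TGTGGT in 9.04%, TGACGTCA in 2.39% and the B box core GGTTCGA or GGTTCAA in 3.75%, where all HA regions had 23.4%, 7.82%, 9.44%, 2.15% and 3.77%. These are matches of letters in a fixed window and not binding sites.

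The converse question was how many H3K4me3 regions off protein coding TSSs had HA. Of 2497 ProMMP2-3xHA H3K4me3 regions off these TSSs with a WT counterpart within 1 kb, 648 (26.0%, 95% interval 24.2 to 27.7%) had a merged HA region of any width within 1 kb, against 5533 of 11755 (47.1%) near protein coding TSSs. Off TSSs the regions were narrower, with a median of 600 bp against 1351 bp. Within a width class, the intervals for H3K4me3 regions at lncRNA TSSs and at protein coding TSSs overlapped: the share with HA was 49.6% (95% interval 43.5 to 55.8%) against 51.5% (50.2 to 52.8%) between 1000 and 1999 bp, and 66.3% (55.7 to 75.8%) against 70.5% (68.7 to 72.3%) from 2000 bp on. Regions with neither kind of TSS were at 36.0% (30.05 to 42.3%) and 32.3% (20.9 to 45.3%), and these intervals overlapped neither those of the protein coding nor those of the lncRNA class. From 500 bp to under 1000 bp the share with neither kind of TSS, 24.2% (20.3 to 28.4%), overlapped both other intervals (24.6 to 34.6% at lncRNA TSSs and 28.1 to 31.7% at protein coding TSSs). Under 500 bp the shares were 11.02% at lncRNA TSSs, 10.6% at protein coding TSSs and 13.9% at neither. Each H3K4me3 list is 1 library, so these intervals cover counting error only.

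**Figure D5:**
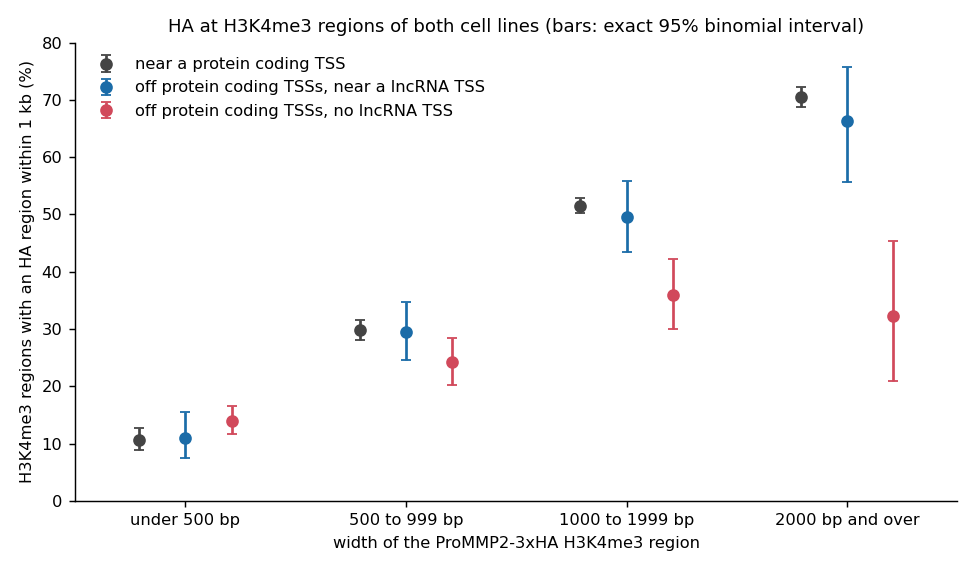
Share of H3K4me3 regions with an HA region within 1 kb (y axis, %) by width class of the ProMMP2-3xHA H3K4me3 region (x axis), for regions near a protein coding TSS, off these but near a lncRNA TSS, and near neither. Bars are exact 95% binomial intervals. From 2000 bp on, the shares were 70.5%, 66.3% and 32.3%.

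Off TSSs, H3K4me3 regions with and without HA differed in sequence at similar width. Between 1000 and 1999 bp, the 222 regions with HA had a median GC content of 62.1% in the central 500 bp and an observed to expected CpG ratio of 0.726, and the 294 without HA had 53.7% and 0.582. Near protein coding TSSs the same comparison gave 67.4% and 66.8%, with ratios of 0.819 and 0.806. The central 120 bp of the region nearest to the median of each group off TSSs are shown in the same way as above, from chr2:127783235-127783354 with HA and chr10:129992859-129992978 without.
With HA: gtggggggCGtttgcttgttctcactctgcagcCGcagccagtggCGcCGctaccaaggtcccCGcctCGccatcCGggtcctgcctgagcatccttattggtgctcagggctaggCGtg
Without HA: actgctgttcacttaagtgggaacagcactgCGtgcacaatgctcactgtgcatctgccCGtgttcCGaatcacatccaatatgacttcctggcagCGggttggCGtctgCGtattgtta
They held 8 and 6 CpG, at a GC content of 65.8% and 51.7%. GC content can also change how many fragments a library recovers, and its part in the HA calls was not tested.

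The regions nearest to the limits of the selection had the following values. Those just outside the TSS window were RNF40 at 1024 bp (5.82, 5.27 and 3.90), WDR59 at 1059 bp (no peak in replicate 1, 6.87 and 4.99) and SEC14L2, 1091 bp from a TSS of MTFP1 (5.22, 9.79 and 6.0). Just inside were HA regions 992 bp from RAB40C (7.05, 10.6 and 5.26), 960 bp from PQBP1 (3.44 in replicate 2 alone) and 940 bp from ELF2 (4.98 in replicate 3 alone). The widest regions kept were 1957 bp at LINC02777, 1949 bp at ENSG00000278869 and 1924 bp in an intron of DLGAP1, and the narrowest left out by width was 2019 bp at MIRLET7BHG (6.04, 7.75 and 5.33). The highest control background was 13 control fragments, at an unnamed lncRNA (chr7:4681142-4682180) in replicate 1, with fold enrichments of 2.52, 3.74 and 4.02, and equally at a further lncRNA TSS (chr1:247802894-247803098) in replicate 3, with 2.88 and 3.0 in replicates 1 and 3 and no peak in replicate 2. Next was an intergenic region (chr22:35746161-35747372) with 12 in replicate 2 and fold enrichments of 5.07, 3.67 and 3.04.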

How the data were processed

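Peak lists of 3 ProMMP2-3xHA HA replicates and of 1 H3K4me3 library from each of ProMMP2-3xHA and WT cells, with 1 merged HA list, were used. The authors trimmed reads (Trim Galore 0.6.0), aligned pairs to hg19 (GRCh37; Bowtie2 2.3.5.1), kept a mapping quality of 30 or more (SAMtools 1.9), removed duplicates (Picard) and called peaks with MACS2 3.0.0a6 at a q-value of 0.05 and a minimum length of 147 bp against an input or control immunoprecipitation. The merged list came from pooled replicates, with narrow and broad calls combined. Deposited replicate lists give, for each peak, the fold enrichment as a ratio, the −log10 of p and q, and a score, which was not used. Intervals of the merged and H3K4me3 lists carry no values.

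Here, regions were near each other within 1 kb, end to end (checked against bedtools 2.31.1). TSSs were the annotated starts of all transcripts of GENCODE 44 lifted to GRCh37, also for microRNA genes. A region was placed in the first class that applied: lncRNA TSS, small RNA TSS, pseudogene, protein coding exon, protein coding intron, lncRNA gene body, intergenic. Each region took the highest fold enrichment of the overlapping peaks. Fragments and control background at summits were recovered from fold enrichment and p (MACS2 pseudocount of 1, tolerance 0.03), for 98.6%, 99.0% and 97.0% of summits in replicates 1, 2 and 3; the recovery was tested on simulated data. Summit positions were compared over the replicates by exact two-sided sign permutation, whose smallest p is 0.25, while fold enrichment and peak presence, which chose the regions, are described without a test; shares have Clopper-Pearson 95% intervals. Named regions are the 5 with the highest mean fold enrichment per class, regions at a list of known noncoding genes (6 of its names were not found in the annotation), those at the limits of the rule and those with the highest control background. Not every region that met this rule is reported here. The members and lists were chosen with earlier results of these data known. Alternatives covered windows, TSS definitions, widths, q-values and left-out replicates. The share of repeat-masked sequence was not computed, because the genome sequence used carries no masking. Python 3.11.15, NumPy 2.4.6, SciPy 1.17.1 and matplotlib 3.10.9 were used.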

Additional observations from a re-analysis of the deposited data

Results flagged for a closer look

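One HA region that met the H3K4me3 part of the criteria was left out of the comparisons because it lies on an unplaced contig without gene annotation (chrUn_gl000241:36627-37296, 670 bp). Its fold enrichment was 6.69, 8.64 and 6.09 in replicates 1, 2 and 3, above the median of the regions placed on chromosomes in each replicate, and the H3K4me3 regions beside it were 1683 bp wide in ProMMP2-3xHA and 1438 bp in WT cells. It was listed because its signal lies in data outside the comparisons and above the control of the peak caller.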

How the results depend on the processing

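The 586 regions became 1318 when only the 5′ end of each protein coding gene counted as a TSS, since regions at alternative promoters then entered, and the share near a lncRNA TSS became 35.7%. Under the 7 other definitions the number of regions stayed between 484 and 707. The share with a peak of every replicate was 31.9% when the peaks had to cover at least 50% of the region, 40.8% at a q-value of 0.01 and 32.1% at 0.001, and 54.4 to 65.4% when each replicate was left out in turn, where fewer replicates have to agree. The share of H3K4me3 regions off TSSs with HA was 35.1% for regions of at least 500 bp. The mean fold enrichment ratio stayed below 1 under every alternative run, between 0.960 and 0.984, including 2 alternatives chosen after seeing the data: regions with a control background of 4 fragments or less (0.965) and HA regions of 300 to 600 bp (0.968, where replicate 2 alone was above 1, at 1.02). With only regions that had a peak of every replicate the mean was 0.973, and there too not every replicate was below 1. The downstream excess at lncRNA TSSs was 17.1 percentage points for summits within 250 bp and 10.1 to 11.1 with a replicate left out. No paired analysis was possible because the HA and H3K4me3 groups share only replicate number 1. With 3 replicates the exact sign permutation test cannot pass a threshold of 0.05, and the number of fragments per summit limits what single regions show.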

Other observations

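The regions were spread over all chromosomes except Y. Chromosome 17 held the most, 54, against 291 TSS regions, and chromosome 22 had 30 against 143, while chromosome 4 had 11 against 164. U2OS cells have an abnormal karyotype and copy number was not measured, so these counts are not corrected for it. Another of the regions lay within 50 kb for 84 (14.3%). Both genes of the U4 small nuclear RNA, RNU4-1 and RNU4-2, share 1 HA region of 2507 bp with fold enrichments of 15.3, 24.2 and 6.53, outside the regions described by its width and with no protein coding TSS within 1 kb.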
